A study of Glycine max with 12 samples.

Results

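Isoflavone synthases and glyceollin prenyltransferases stand at the entry and near the end of the branch by which soybean (Glycine max) makes its main phytoalexins. The 4 genes described here were taken by identifier from the count table: IFS1 (Glyma.07G202300) and IFS2 (Glyma.13G173500), the isoflavone synthases, and G4DT (Glyma.10G295300) and G2DT (Glyma.20G245100), the prenyltransferases. They are 4 of 56877 genes in the table, and all 4 were among the 37170 with enough counts to be tested. Their names come from the description of the series prepared for this work. The RefSeq gene table of Glycine_max_v4.0 lists genes of these 4 symbols on chromosomes 7, 13, 10 and 20, the chromosomes the identifiers carry. It also gives IFS2 as a synonym of IFS1 and IFS1 as a synonym of IFS2, so the identifier decides which copy is meant.

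Roots were sampled from the line labelled OX with 50 µM AlCl3 (OX_Al), OX with 0 µM AlCl3 (OX_CK), WT with 50 µM AlCl3 (WT_Al) and WT with 0 µM AlCl3 (WT_CK). The series looked for candidate genes of aluminium tolerance. Each group had 3 libraries, 12 in all, made from total RNA of roots. The labels name neither the gene behind OX nor the cultivar, the plant age or the time of exposure, so no check of an overexpressed gene was possible. The labels do not state if replicates were separate plants. The p-values of the main fit cover only the spread of libraries within their groups, estimated over all 12 libraries together. Part of that spread may be technical.

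Isoflavone synthase is a cytochrome P450 that moves the aryl ring of a flavanone, the step that commits flavonoid precursors to isoflavones such as daidzein and genistein. Later enzymes turn daidzein into the pterocarpan glycinol. The prenyltransferases add a dimethylallyl group to glycinol, G4DT and G2DT at different carbons, and the products lead to different glyceollins. Glyceollins are best known as antimicrobial compounds that soybean tissue makes after attack by pathogens, and isoflavones of the root also act as signals to rhizobia.

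Library totals ran from 15923413 to 18399566 counts, and levels are given in CPM, a gene's count per 1000000 counts of the TMM-scaled library. All 48 values of the 4 genes were whole numbers (tolerance 1e-06). The isoflavone synthases are close copies of each other, and how the authors' counting treated reads that fit both is not given in the sources used here, so the split of reads between IFS1 and IFS2 is uncertain. Changes are log2 fold changes with their standard error (SE) from edgeR's quasi-likelihood test, and a call means an adjusted p (Benjamini-Hochberg, over the whole table) under 0.05. Along the first principal component of all tested genes, which held 67.01% of the variance and set Al apart from CK, the Al libraries lay between 54.9 and 107.6 and the CK libraries between -121.5 and -50.5. The CK library nearest to the Al libraries was OX_CK replicate 2, at -50.5. Markers of other tissues or cell types could not be looked up, because the identifiers were paired with no names.

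IFS2, the isoflavone synthase with the wide range, stood at 2125, 2418 and 2316 CPM in OX_Al, against 314.6, 1050.0 and 297 CPM in OX_CK. In WT it stood at 1020.4, 679 and 645 CPM with Al, against 123, 150.3 and 179 CPM without. The Al libraries of each line were all above the CK libraries of that line, and OX_CK replicate 2 was above every other CK library and above all WT_Al libraries. Al raised IFS2 by 2.05 ± 0.43 on the log2 scale in OX (SE, adjusted p = 0.00322) and by 2.37 ± 0.44 in WT (adjusted p = 0.00119), which is 4.13-fold in OX and 5.18-fold in WT. Without OX_CK replicate 2 the change in OX was 2.89, or 7.43-fold. In these bulk roots a higher level per cell and more cells that express the gene cannot be told apart.

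IFS1, the other isoflavone synthase, went the other way. Its levels were 365, 346 and 312 CPM in OX_Al, against 451, 707 and 476 CPM in OX_CK. They were 372, 264 and 316 CPM in WT_Al, against 463, 399.6 and 475 CPM in WT_CK. Every Al library was below every CK library, in both lines. The fall in OX passed the test, at -0.67 ± 0.20 on the log2 scale (SE, adjusted p = 0.0227), while the change in WT, -0.49 ± 0.20, did not (adjusted p = 0.0788; 95% interval -0.93 to -0.04). The call in OX ended without OX_Al replicate 2, OX_Al replicate 3 or OX_CK replicate 2 (adjusted p = 0.0586, 0.0886 and 0.095). The value in WT was called with the DESeq2 Wald test (adjusted p = 0.0438) and with libraries scaled by their totals or their upper quartile (adjusted p = 0.014 and 0.0225), which also lowers the median of all genes.

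**Figure D1:**
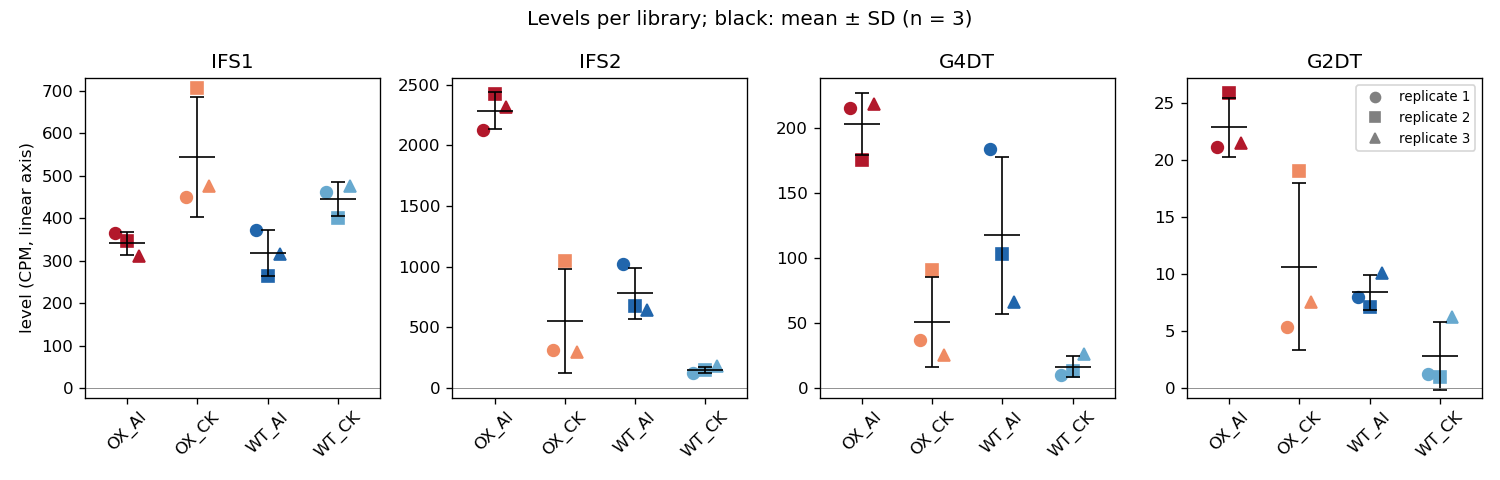
Level of each gene in every library (y axis, CPM, linear), by group from OX_Al to WT_CK; marker shapes give the replicate number and black marks the mean ± SD of 3 libraries. IFS2 averaged 2286 CPM in OX_Al against 151 CPM in WT_CK, IFS1 was lower in every Al library than in any CK library, and the square of OX_CK replicate 2 is the highest of its group in all panels.

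The composition of the isoflavone synthase pair therefore differed by group. IFS2 made up 85.3%, 87.5% and 88.1% of the pair's counts in OX_Al, against 41.1%, 59.8% and 38.5% in OX_CK. In WT it made up 73.3%, 71.97% and 67.1% with Al, against 21.0%, 27.3% and 27.4% without. No library of one group overlapped with a library of another, in the order OX_Al, WT_Al, OX_CK and WT_CK from high to low. The exact 95% binomial interval of a single library was at most 1.76 percentage points wide and covers counting error only. These shares are of counts and are not corrected for gene length. The level of both copies summed averaged 2627 ± 137 CPM (SD, n = 3) in OX_Al, 1098 ± 570.2 CPM in OX_CK, 1099 ± 255 CPM in WT_Al and 596 ± 52.7 CPM in WT_CK. Fitted as 1 gene, the summed counts had a log2 fold change with Al of 1.26 ± 0.31 (SE) in OX and 0.88 ± 0.31 in WT.

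**Figure D2:**
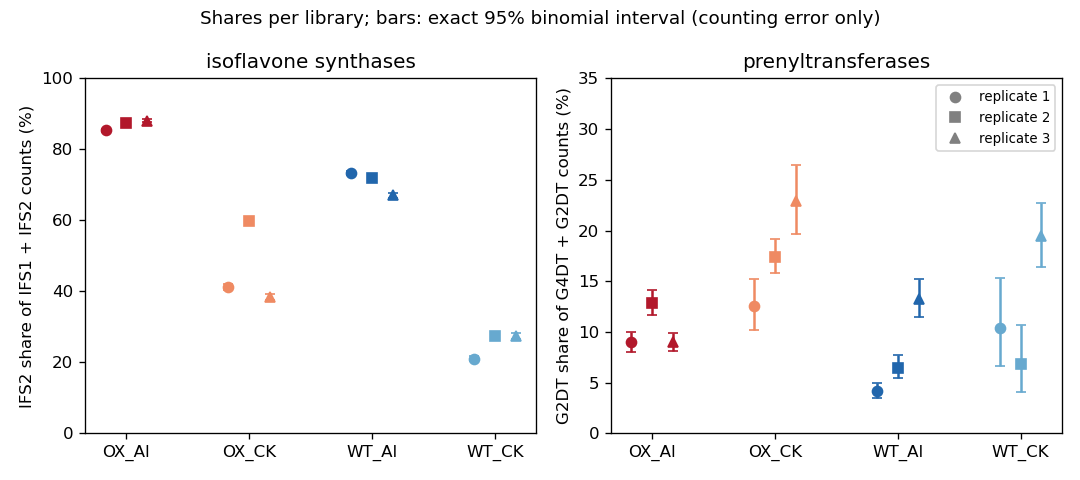
Left, percent of the isoflavone synthase counts that are IFS2; right, percent of the prenyltransferase counts that are G2DT (y axes), 1 point per library by group with its exact 95% binomial interval. IFS2 took 85.3% to 88.1% in OX_Al and 21.0% to 27.4% in WT_CK, while the G2DT share overlapped between Al and CK in both lines.

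G4DT, which prenylates glycinol, had 215, 175 and 219 CPM in OX_Al, against 37.2, 90.5 and 25.6 CPM in OX_CK. It had 184, 103 and 65.8 CPM in WT_Al, against 10.4, 13.5 and 26.1 CPM in WT_CK. The groups did not overlap in either line, though WT_Al replicate 1 was well above the other WT_Al libraries. Al raised G4DT by 1.99 ± 0.49 on the log2 scale in OX (SE, adjusted p = 0.00816) and by 2.82 ± 0.51 in WT (adjusted p = 0.0011), or 3.97-fold in OX and 7.04-fold in WT. Without OX_CK replicate 2 the change in OX was 2.68, or 6.42-fold. Both calls, and those of IFS2, held without each library of the comparison in turn.

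G2DT, which prenylates glycinol at the other carbon, was the gene of the 4 with the fewest counts, with 18 to 394 counts per library. It had 21.2, 25.9 and 21.6 CPM in OX_Al, against 5.34, 19.1 and 7.61 CPM in OX_CK. In WT it had 7.98, 7.15 and 10.1 CPM with Al, against 1.21, 0.999 and 6.29 CPM without. Replicates 1 and 2 of WT_CK held 22 and 18 counts, with exact 95% Poisson intervals of 13.8 to 33.3 and 10.7 to 28.4 counts, while replicate 3 had 122. The Al libraries of each line were above its CK libraries, but neither change passed the test, at 1.10 ± 0.56 on the log2 scale in OX (SE, adjusted p = 0.144; 95% interval -0.12 to 2.32) and 1.56 ± 0.61 in WT (adjusted p = 0.0622; 95% interval 0.23 to 2.88). These calls turned on single libraries and on the test. Without OX_CK replicate 2 the change in OX was 1.81 and was called (adjusted p = 0.0398), and without WT_CK replicate 3 the change in WT was 2.92 and was called (adjusted p = 0.00122). With all libraries, limma-voom called both, at 1.29 in OX (adjusted p = 0.0273) and 2.04 in WT (adjusted p = 0.0251), and the DESeq2 Wald test called the change in WT (adjusted p = 0.0292). G2DT made up 8.98% to 12.9% of the counts of both prenyltransferases in OX_Al and 12.6% to 22.9% in OX_CK, and 4.17% to 13.3% in WT_Al and 6.87% to 19.4% in WT_CK. These shares of counts, not corrected for length, overlapped between Al and CK in both lines.

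Counted over the 4 genes, 2 rose and 1 fell with Al in OX, where 36.4% of all tested genes were called, 21.2% higher and 15.2% lower. In WT 2 rose and none fell, where 37.4% were called, 21.5% higher and 15.9% lower. No gene of the 4 overlapped between Al and CK in either line, which held for 50.9% of all genes in OX and 47.1% in WT. With so many calls among all genes, a count over 4 sets these genes apart from none. IFS2 had a higher log2 fold change than 92.9% of tested genes in OX and 93.0% in WT, and G4DT than 92.7% and 94.4%. G2DT lay above 86.1% and 89.2%, and IFS1 above 16.3% and 24.5%.

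**Figure D3:**
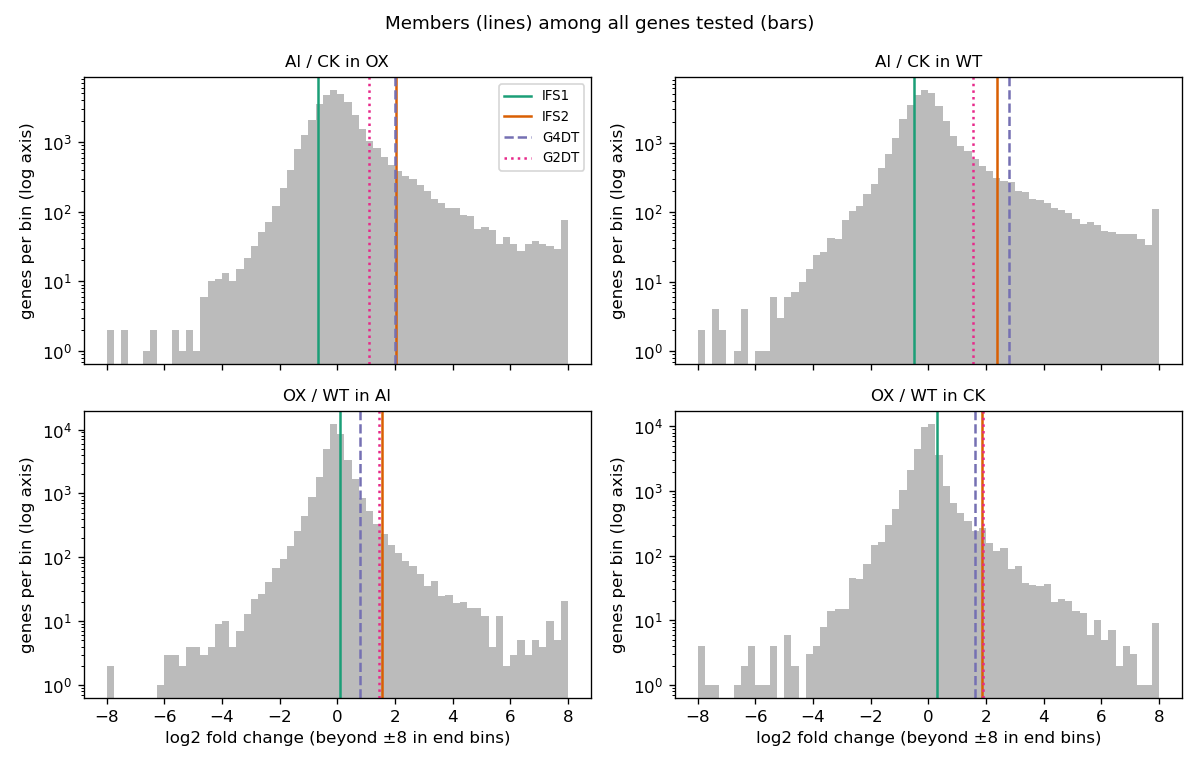
Log2 fold change (x axis) of all 37170 tested genes, in bars on a log axis of genes per bin, with the 4 genes as vertical lines, for Al against CK in OX and in WT and for OX against WT in Al and in CK. IFS2 and G4DT lie in the upper tail of both Al panels, above 92.7% or more of the genes, and IFS1 lies left of the peak there.

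The second axis of the study was the line. With Al, IFS2 averaged 2286 ± 149 CPM (SD, n = 3) in OX and 781 ± 208 CPM in WT, a log2 fold change of 1.55 ± 0.43 (SE). The libraries did not overlap, and the adjusted p was 0.054, just outside the threshold, with a 95% interval of 0.62 to 2.48. It was called by the DESeq2 Wald test (adjusted p = 0.00288), when only the Al libraries were fitted (adjusted p = 0.00129) and with upper quartile scaling or library totals (adjusted p = 0.0491 and 0.0447). By limma-voom it was not called (adjusted p = 0.0544). Leaving out each Al library in turn, edgeR gave 1.43 to 1.79 and no call (adjusted p = 0.0722 to 0.197). G2DT averaged 22.9 ± 2.61 CPM in OX_Al and 8.4 ± 1.51 CPM in WT_Al, again without overlap, and differed by 1.44 ± 0.57 on the log2 scale (adjusted p = 0.206). It was called when only the Al libraries were fitted (adjusted p = 0.000745), but not by the DESeq2 Wald test or limma-voom (adjusted p = 0.127 and 0.064). Nor did edgeR call G2DT without each Al library in turn (adjusted p = 0.28 to 0.465). G4DT, at 203 ± 24.0 CPM in OX_Al and 118 ± 60.3 CPM in WT_Al, overlapped, because WT_Al replicate 1 was above OX_Al replicate 2, and its log2 fold change was 0.79 ± 0.48 (adjusted p = 0.488). IFS1, at 341 ± 27.2 CPM in OX_Al and 318 ± 54.1 CPM in WT_Al, overlapped too (0.10 ± 0.20, adjusted p = 0.889).

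None of the 4 was thus called between the lines with Al by edgeR, where 6.07% of all genes were, 4.16% higher and 1.91% lower in OX. At an unadjusted p under 0.05 the count was 2 (IFS2 and G2DT), against 16.5% of all genes. It was 1 with the DESeq2 Wald test, against 8.47%, and 0 with limma-voom, against 7.08%. The 2 genes without overlap compare with 25.6% of all genes.

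Without Al, IFS2 averaged 554 ± 429.6 CPM (SD, n = 3) in OX_CK and 151 ± 27.8 CPM in WT_CK, and every OX_CK library was above every WT_CK library. Its log2 fold change of 1.88 ± 0.43 (SE) was called (adjusted p = 0.0283), but the size leaned on 1 library. Without OX_CK replicate 2 it was 1.04 and no longer called (adjusted p = 0.0611). Without WT_CK replicate 1 or 2 the change stayed about as large, at 1.75 and 1.87, and was not called (adjusted p = 0.0941 and 0.115), nor was it when only the CK libraries were fitted (1.92, adjusted p = 0.142). G2DT averaged 10.7 ± 7.37 CPM in OX_CK and 2.83 ± 2.997 CPM in WT_CK (log2 fold change 1.90 ± 0.61, adjusted p = 0.113), and G4DT 51.1 ± 34.6 CPM in OX_CK and 16.7 ± 8.31 CPM in WT_CK (1.62 ± 0.49, adjusted p = 0.0985). The DESeq2 Wald test called both (adjusted p = 0.0262 and 0.0146). For these genes the highest WT_CK library, replicate 3, overlapped with the lowest OX_CK library. Without WT_CK replicate 3 the change of G2DT was 3.27 and was called (adjusted p = 0.00567), and without OX_CK replicate 2 that of G4DT was 0.93 (adjusted p = 0.485) and that of G2DT 1.19 (adjusted p = 0.541). IFS1 averaged 544 ± 141 CPM in OX_CK and 446 ± 40.4 CPM in WT_CK and was not called (0.29 ± 0.20, adjusted p = 0.563).

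By count, edgeR called 1 of 4 genes between the lines without Al, where 4.43% of all genes were called, 2.93% higher and 1.5% lower in OX. The DESeq2 Wald test called 3, against 7.52% of all genes, and limma-voom 1, against 3.89%. At an unadjusted p under 0.05 in edgeR the count was 3, against 16.2%. Without overlap was 1 gene, against 17.5% of all genes. OX_CK replicate 2 was the highest OX_CK library for all 4 genes, and WT_CK replicate 3 was the highest WT_CK library for all 4. On the first principal component these were also the CK libraries of their line nearest to the Al libraries, at -50.5 against -82.0 and -56.2 in OX_CK and at -89.3 against -121.5 and -111.3 in WT_CK. IFS1, which was lower with Al, was also highest in these libraries, at 707 and 475 CPM. In OX_CK, IFS2 and G4DT were lowest in replicate 3 (297 and 25.6 CPM), the second nearest, and IFS1 and G2DT in replicate 1, the farthest. In WT_CK, IFS2 and G4DT were lowest in replicate 1, the farthest, and IFS1 and G2DT in replicate 2. The part of the position on this component in these results was not tested beyond the fits that left out the library.

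**Figure D4:**
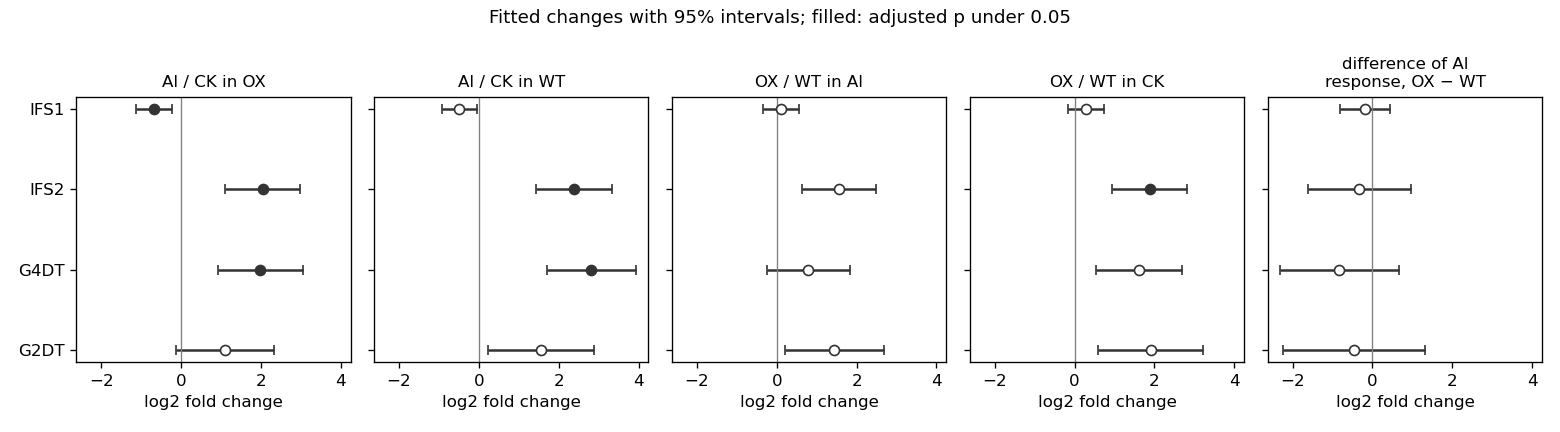
Log2 fold change with its 95% interval (x axis) of each gene for 5 comparisons; filled points had an adjusted p under 0.05. IFS2 and G4DT are filled for Al in both lines, IFS1 for Al in OX alone, IFS2 for OX against WT in CK, and no gene for the difference of the Al response.

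Whether Al acted differently on these genes in the lines was tested as the interaction of line and treatment, OX response minus WT response. None of the 4 was called by edgeR, which called 1.63% of all genes, 0.88% with a higher and 0.748% with a lower response in OX. None was called by the DESeq2 Wald test, against 4.01% of all genes, or by limma-voom, against 1.22%. None had an unadjusted p under 0.05 in edgeR, against 12.2%. With shares this low, a count of none among 4 does not set these genes apart. The differences were -0.33 ± 0.59 for IFS2 (SE, 95% interval -1.61 to 0.95), -0.83 ± 0.68 for G4DT (-2.30 to 0.65), -0.46 ± 0.82 for G2DT (-2.24 to 1.32) and -0.19 ± 0.29 for IFS1 (-0.81 to 0.44), with adjusted p-values of 0.694 to 0.871. The intervals are wide enough to hold differences of over 1 on the log2 scale for IFS2, G4DT and G2DT, so a like response of both lines is not shown. Without OX_CK replicate 2 the difference of IFS2 was 0.53, of G2DT 0.26 and of IFS1 0.04, with the sign turned and adjusted p-values of 0.744, 0.9747 and 0.99, and that of G4DT was -0.12 (adjusted p = 0.986). Without WT_CK replicate 3 the difference of G2DT was -1.83 (adjusted p = 0.218).

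The order of the group means was OX_Al, WT_Al, OX_CK and WT_CK from high to low for IFS2 and G4DT. For IFS2 only WT_Al and OX_CK overlapped among neighbours in this order, and for G4DT each group overlapped with the next. For G2DT the order was OX_Al, OX_CK, WT_Al and WT_CK, with overlap between OX_CK and WT_Al and, across them, between OX_CK and WT_CK. For IFS1 it was OX_CK, WT_CK, OX_Al and WT_Al, with overlap between OX_CK and WT_CK and between OX_Al and WT_Al. WT_Al and OX_CK differ in both line and treatment and were not tested against each other. Between OX_Al, which carries both, and WT_CK, which carries neither, the ratio of means was 15.2 for IFS2, 12.2 for G4DT, 8.08 for G2DT and 0.765 for IFS1.

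The profiles over the 12 libraries were also set against each other, as the root mean square difference of log2(CPM + 1) after centring each gene on its mean. IFS2 and G4DT differed by 0.38. Of 25501 genes with a mean of at least 5 CPM, 9 were closer to IFS2 than G4DT was and 10 were closer to G4DT than IFS2 was. G2DT was farther off, at 0.64 from IFS2 and 0.74 from G4DT, with 256 genes closer to IFS2 and 692 closer to G4DT than it was. In WT_CK replicates 1 and 2 G2DT was at 1.21 and 0.999 CPM, about the size of the added 1. The part of these low counts in its distances was not tested. IFS1 differed by 1.64 from IFS2, 1.65 from G4DT and 1.27 from G2DT. G4DT had 7.25 to 10.1 counts per 100 counts of IFS2 in OX_Al, 8.61 to 11.8 in OX_CK, 10.2 to 18.0 in WT_Al and 8.41 to 14.6 in WT_CK, so the ranges of these ratios overlapped between Al and CK in both lines while the levels did not. These likenesses are descriptions: the libraries share the treatment, which sets most of the variance of all genes.

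Of the genes outside the 4, the nearest profile to IFS2 was that of Glyma.17G012600, at 0.28, with means of 52.3 CPM in OX_Al, 8.53 CPM in OX_CK, 16.4 CPM in WT_Al and 2.73 CPM in WT_CK. The nearest to G4DT was Glyma.08G042100, at 0.29, which was also the second nearest to IFS2, at 0.30. The nearest to IFS1 was Glyma.11G115200, at 0.13, with means of 6.14 CPM in OX_Al, 9.57 CPM in OX_CK, 6.18 CPM in WT_Al and 7.98 CPM in WT_CK. The nearest to G2DT was at 0.31. The sources used here pair these identifiers with no name, so nothing is said of what they do.

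The position of the genes was described through the 10 tested genes on either side of each, in the order of the identifiers, 80 genes in all. With Al 18 of them rose and 14 fell in OX, and 18 rose and 11 fell in WT, that is 40% called in OX and 36.25% in WT, near the 36.4% and 37.4% of all genes. Their median log2 fold change was 0.06 in OX and 0.05 in WT, against -0.02 and -0.04 over all genes. Around G4DT 5 of 20 neighbours rose and 2 fell in OX, and the same numbers in WT; around IFS2 it was 3 and 3 in OX and 3 and 1 in WT. Around G2DT it was 4 and 6 in OX and 5 and 5 in WT, and around IFS1 6 and 3 in OX and 5 and 3 in WT. Of the 8 genes directly beside the 4, none was called higher with Al in OX, and the one before G2DT was in WT (0.74, adjusted p = 0.00143). The gene after IFS1 fell with Al in both lines, by 1.80 in OX and by 1.53 in WT on the log2 scale (adjusted p = 0.0187 and 0.0348). The gene before IFS2, with a mean of 1.86 CPM, was higher in OX than in WT with Al (4.70, adjusted p = 0.00614). Between the lines, 3 of the 80 were higher and 1 lower in OX with Al, or 5% called, against 6.07% of all genes. Without Al none was called by edgeR or limma-voom, which called 4.43% and 3.89% of all genes. The DESeq2 Wald test called 2 of the 80, against 7.52% of all genes, and 10 had an unadjusted p under 0.05, against 16.2%.

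**Figure D5:**
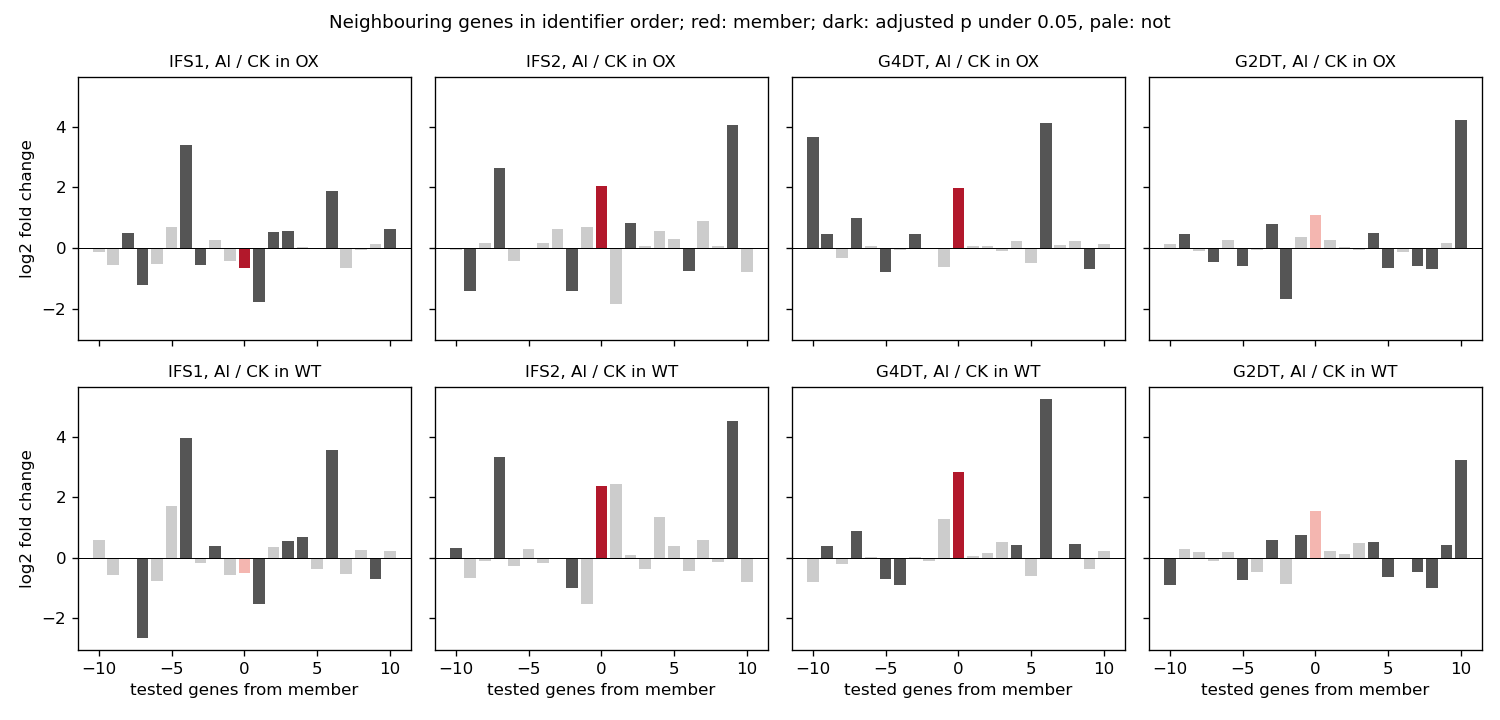
Log2 fold change with Al (y axis) of each gene, in red at 0, and of the 10 tested genes on either side in identifier order (x axis), in OX above and WT below; dark or full red bars had an adjusted p under 0.05 and pale ones did not. No gene directly beside IFS2 or G4DT has a dark bar above 0, and the tallest bar of each row, 4.20 in OX and 5.23 in WT, is a neighbour and not one of the 4 genes.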

How the data were processed

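The deposited file is a single gene table of estimated counts, partly with decimals and unscaled between libraries, per the file headers and the values. Per the submitters' processing notes, the tools were HTSeq 0.6.0, HISAT2 2.1.0, Bowtie2 2.2.3, TopHat2 and CASAVA, whose roles the notes do not state. Genome build, annotation and strand setting: not given in the sources used here. Groups and replicate numbers came from the labels.

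Here 8 rows of stray text were left out and 56877 genes kept. Counts were rounded, filtered with filterByExpr (minimum count 10, minimum total 15; 37170 genes with 99.9% of the counts) and scaled by TMM. edgeR 4.0.16 (R 4.3.3) fitted 1 mean per group to all 12 libraries with the robust quasi-likelihood F-test, two-sided. The SE was computed as |log2 fold change| divided by the root of F. DESeq2 1.42.0 and limma 3.58.1 (voom) were alternatives. The code was tested on simulated data. The 4 genes, lists and tests were chosen with earlier results of these data known. Genes outside the 4 were to be named by likeness of profile (the 3 nearest per gene) and, among neighbours, by a called log2 fold change of 2 or more; fewer are printed, because none of the identifiers matched the 59048 genes of the reference table (0 matches). For the same reason the lists of isoflavonoid, prenyltransferase, defence and tissue marker genes, defined by description, could not be built. No sequence or coordinate is printed.

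Same-numbered libraries deviated together for Al against CK in WT (correlations of 0.17, 0.29 and 0.42 across genes) and for OX against WT in CK (0.48, 0.18 and 0.69). On the data alone the numbers may pair these libraries, but the main fit, which gave the edgeR p-values above, did not use a pairing. For the Al response of OX the values were 0.29, -0.019 and 0.22, and for the lines under Al 0.035, -0.15 and 0.014. There the numbers were not taken to pair the libraries. A library correlated most with that of its own number in 2 of 3 cases for each comparison but the lines under Al, where 0 did. By this count the Al response of OX did not stand apart from the comparisons named before it. The fit with the replicate block, run for all comparisons, stands as an alternative.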

Additional observations from a re-analysis of the deposited data

How the results depend on the processing

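Over 340 refits of single genes, leaving aside the stricter threshold and the summed pairs, 313 kept direction and side of the threshold, 7 lost a call, 16 gained one and 4 turned sign, 3 of these without OX_CK replicate 2. Filters on low counts, rounding down, DESeq2 size factors in edgeR and the replicate block changed no call; with the block, IFS2 was at 2.17 with Al in OX, 2.39 with Al in WT and 1.74 between the lines in CK (adjusted p = 0.00279, 0.00155 and 0.0443). In log2 fold change, calls gained were IFS1 with Al in WT (-0.65 with the upper quartile, -0.67 with library totals, -0.49 by DESeq2); IFS2 for OX against WT in Al (1.55, 1.52 and 1.57 likewise, and 1.58 with only these groups); G2DT with Al in OX (1.29 by limma-voom) and with Al in WT (1.55 by DESeq2, 2.04 by limma-voom); G4DT and G2DT for OX against WT in CK (1.62 and 1.91 by DESeq2); and G2DT for OX against WT in Al (1.47 with only these groups). At an adjusted p under 0.01 the calls of IFS1 with Al in OX (-0.67) and of IFS2 between the lines in CK (1.88) were lost, and IFS2 in CK with only these groups (1.92). With the counts of each pair summed, the isoflavone synthases were at 1.26 with Al in OX, 0.88 with Al in WT, 0.88 for OX against WT in CK, 1.26 for OX against WT in Al and 0.38 for the difference, and the prenyltransferases at 1.87 with Al in OX and 2.69 with Al in WT, which by construction is mostly the copy with more counts. The summed isoflavone synthases were called with Al in both lines and for OX against WT in Al (adjusted p = 0.0326), and the call of IFS2 between the lines in CK did not hold for the sum (adjusted p = 0.157). Upper quartile scaling and library totals moved the median of all genes by -0.16 and -0.17 with Al in OX and by -0.16 and -0.18 in WT; IFS1 moved by as much.

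Without 1 library each, IFS1 ran from -0.80 to -0.45 with Al in OX, from -0.0136 to 0.23 for OX against WT in Al (below 0 without WT_Al replicate 2) and from -0.31 to 0.0418 for the difference. IFS2 ran from 1.04 to 2.18 for OX against WT in CK and from -0.63 to 0.53 for the difference. G4DT ran from -1.31 to -0.12 for the difference. G2DT ran from 0.78 to 1.81 with Al in OX, 1.16 to 2.92 with Al in WT, 1.19 to 3.27 for OX against WT in CK and -1.83 to 0.26 for the difference. With all libraries of the comparison kept, the number of all genes called also moved. For OX against WT in CK it was 1646 in the main fit, 515 with only these groups and 2794 by the DESeq2 Wald test. For the difference it was 605 in the main fit, 147 at an adjusted p under 0.01 and 1491 by the DESeq2 Wald test. The causes of these moves were not tested beyond the refits named. The alternatives for the isoflavonoid list were not run, since the list could not be built. G2DT had the fewest counts of these genes, 18 to 122 in WT_CK, and the part of depth in its moves was not tested.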
